A study of Arabidopsis thaliana with 2 samples.

Results

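The genes described here are nuclear loci for subunits of mitochondrial complex I, complex III and the mitochondrial ATP synthase in Arabidopsis thaliana. They were chosen by locus from a list of 58, and a locus was used when the array's annotation gave it a probe set that maps to 1 gene. Of the 58 loci, 35 had such a probe set, among 13356 genes on the arrays that did. They were 24 of 37 loci of complex I, 10 of 14 of complex III and 1 of 7 of the ATP synthase. A further 7 loci were read only by probe sets that they share with another gene, and 16 had no probe set listed for them here and were not analysed.

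The RNA was that of intact wild-type Columbia-0 seedlings and of seedlings of OE-N6, a transgenic line in the same background that overexpresses AT4G16790, a gene the labels call NHRGP. Both genotypes were 2 weeks old. They grew at 22 °C in days of 16 h light and 8 h dark, on diluted MS medium that held 2% sucrose, and no further treatment is named. There was 1 Affymetrix ATH1 array for each genotype, on which a set of short probes reads each transcript. The sources used here do not give the promoter of the transgene, how many lines were made or how many seedlings were pooled. For AT4G16790 itself the signal was 91.1 on the wild-type array and 5171 on the OE-N6 array, at least 46.2-fold higher. The fold is a bound, since 91.1 is under the floor of 112 signal units to which lower values were raised. The comparison asks how OE-N6 differs from the wild type. With 1 array per genotype there is no replicate check and no test, and words such as "higher" refer only to these 2 arrays.

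The respiratory chain of the inner mitochondrial membrane oxidises NADH and moves electrons to oxygen. Complex I takes electrons from NADH to ubiquinone, and complex III takes them from ubiquinol to cytochrome c. Both move protons out of the matrix, and the ATP synthase uses the return of these protons to make ATP. Some core subunits are encoded in the mitochondrial genome, and the rest are nuclear genes whose proteins are imported. In plants, complex I also carries gamma carbonic anhydrase proteins, and the large core proteins of complex III are the peptidase that removes import signals from precursor proteins.

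Nearly all of the measured genes had a slightly higher signal in OE-N6, and none differed by much. Of the 35, 34 passed the filter on low values, a mean signal of at least 192. Of these 34, 32 had a log2 ratio of OE-N6 over wild type above 0, against 46.8% of the 5862 genes that passed the same filter. Their median log2 ratio was 0.17, a 1.12-fold difference, and the median of all 5862 genes was -0.02. The values ran from -0.11 to 0.53. None of the 34 reached 2-fold or 1.5-fold in either direction. Among all genes, the shares past 2-fold were 0.546% upward and 0.495% downward, and the shares past 1.5-fold were 2.44% and 2.41%. A log2 ratio of 0.3 or more was found for 6 of the 34 and for 11.6% of all genes. All 6 were in complex I, which holds 24 of the 34.

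The count above 0 depended on how the arrays were set equal. It was 33 of 34 after median centring, 31 after quantile scaling and 30 after loess scaling, which removes a trend of the ratio with signal. The median of the 34 was then 0.19, 0.13 and 0.13. For the RNA spikes of the labelling step, the log2 ratio over 22 probe sets was 0.10 ± 0.18 (mean and SD). With that mean subtracted from every gene, a setting chosen after seeing the data, the median of all genes moved by -0.10 and 24 of the 34 lay above 0 against 31.0% of all genes. Relative to the median of all genes in each scaling, 33 of the 34 lay above it in the deposited signals, 32 after quantile and 30 after loess scaling. Because whole seedlings were used, a different mix of cells and a different amount of RNA per cell cannot be told apart.

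The respiratory genes gave strong signals. Probe sets bind their transcripts with different strength, so the signals of different genes have no common scale and are given only as a description. Across the 34 genes the wild-type signal ran from 508 to 6039 with a median of 2670, and the OE-N6 signal from 516 to 7223 with a median of 2965. Of the 34, 27 had a mean signal of at least 2000, against 11.9% of all genes. The median wild-type signal was 2521 in complex I and 2660 in complex III, and the OE-N6 medians were 2824 and 2904. The single ATP synthase gene read 4725 and 5147. The complexes overlapped almost entirely in signal, as the plot of signals on both arrays shows.

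**Figure D1:**
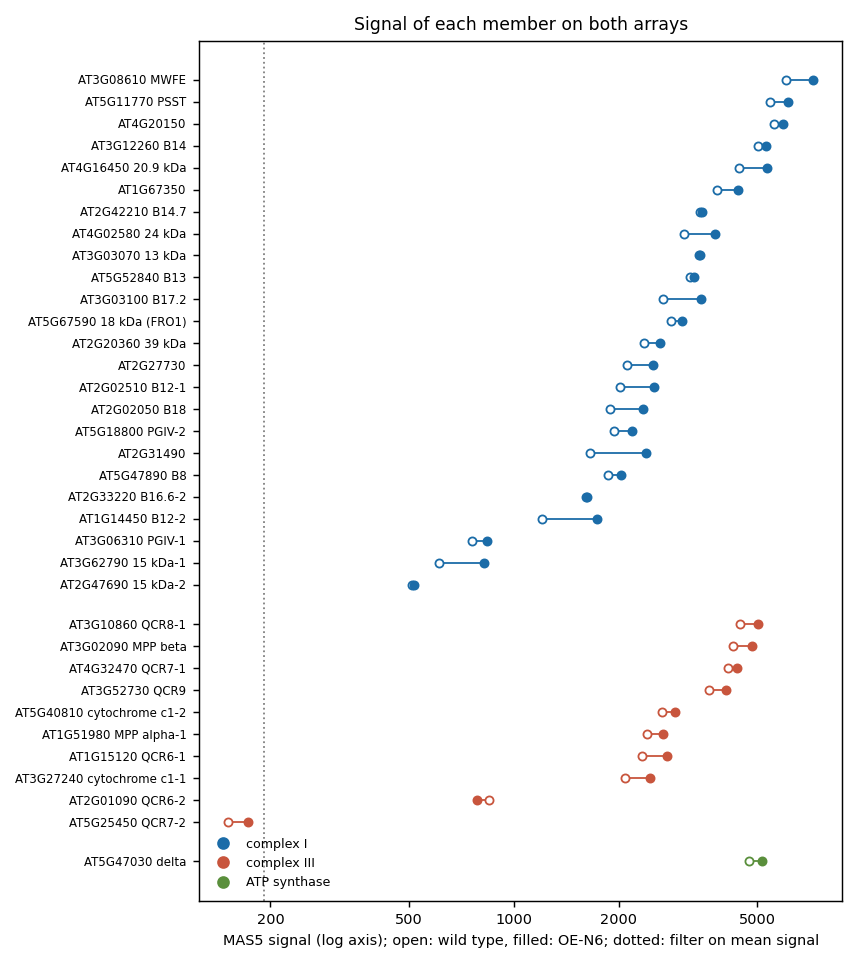
MAS5 signal (log axis) of the 35 genes with a probe set of their own, grouped by complex and ordered by mean signal; open circles are the wild-type array, filled circles the OE-N6 array, and the dotted line is the filter at a mean signal of 192. The filled circle lies to the right of the open one for all but AT3G03070, where both nearly coincide, and AT2G01090, and AT5G25450 alone lies under the filter.

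Bright genes as a whole also leaned toward OE-N6. Among all genes with a mean signal of at least 4000 the median log2 ratio was 0.09, and 66.9% of 287 genes lay above 0. Between 2000 and 4000 the median was 0.01 over 408 genes, and between 500 and 1000 it was -0.03 over 1575 genes. In the same ranges the respiratory genes had medians of 0.17 (10 genes), 0.17 (17 genes) and 0.08 (4 genes). Between 1000 and 2000 the median was 0.12 over 3 respiratory genes and -0.01 over all 829. The SD across genes was 0.07 for the respiratory genes against 0.23 for all genes at 4000 or more. It was 0.14 against 0.26 between 2000 and 4000, where the overexpressed AT4G16790 was left out, and 0.38 with it. In the dimmer ranges, which hold few respiratory genes, it was 0.27 against 0.26 from 1000 to 2000 and 0.23 against 0.28 from 500 to 1000. These SDs are spreads over genes and not errors. The ranges were set after seeing the data, and the part of signal in the result was not tested beyond the scalings given above.

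**Figure D2:**
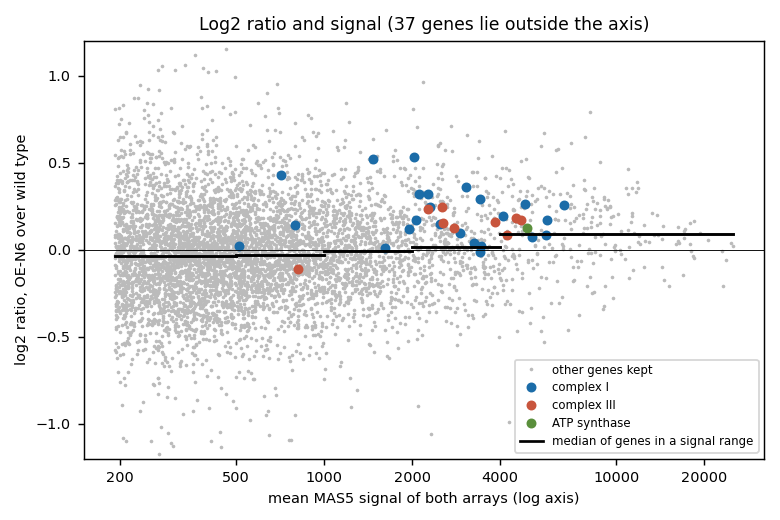
Log2 ratio of OE-N6 over wild type against mean MAS5 signal (log axis) for genes that passed the filter; coloured points are the 34 respiratory genes by complex, grey points the other genes, and black bars the median of all genes in each signal range. The vertical axis ends at 1.2 in both directions and leaves out 37 genes; most coloured points lie above the black bar of their range.

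Complex I and complex III differed little from each other in ratio. The median log2 ratio was 0.17 over 24 genes of complex I, of which 23 lay above 0, and 0.16 over 9 genes of complex III, of which 8 did. The medians of complex I and complex III were 0.15 and 0.12 under both quantile and loess scaling. The spread over genes was wider in complex I (SD 0.16) than in complex III (SD 0.11). The 25th and 75th percentiles were 0.08 and 0.30 in complex I and 0.13 and 0.18 in complex III. Among these genes, the highest value in complex III, 0.25, was below that of 10 genes in complex I. Further subunits of complex III and the ATP synthase outside the 58 loci, given below, had a median of 0.30.

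In the catalytic core of complex I, 2 of 6 loci had a probe set of their own. AT4G02580, the 24 kDa iron-sulfur subunit of the NADH-oxidising arm, read 3080 on the wild-type and 3769 on the OE-N6 array, a log2 ratio of 0.29. AT5G11770, the PSST subunit that carries the last iron-sulfur cluster before ubiquinone, had signals of 5440 and 6127, a log2 ratio of 0.17. Both core genes were higher in OE-N6 and both were among the brighter members. The 75 kDa and 51 kDa subunits and both TYKY loci had no probe set listed here. The same was true of all 5 gamma carbonic anhydrase and carbonic anhydrase-like loci.

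The highest ratios among the 34 genes belonged to accessory subunits of complex I, which account for 22 of the 34. Such subunits surround the core and are known to serve its assembly and stability. AT2G31490 had the highest of all, with signals of 1655 and 2398, a 1.45-fold difference and a log2 ratio of 0.53. It ranked 182 among the 5862 genes. AT1G14450, a counterpart of mammalian NDUFB3 called B12, came next with signals of 1205 and 1727, a log2 ratio of 0.52. AT3G62790, counterpart of mammalian NDUFS5, had signals of 608 and 819, a log2 ratio of 0.43. All 3 had signals below the median of complex I on both arrays.

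AT3G03100, counterpart of mammalian NDUFA12, had signals of 2679 and 3436 and a log2 ratio of 0.36. AT2G02510, the other B12 locus, had 0.32, and AT2G02050, counterpart of mammalian NDUFB7, had 0.32. A middle group followed with AT4G16450 at 0.26, and AT3G08610, counterpart of mammalian NDUFA1, also at 0.26. AT3G08610 was the brightest of all members, with signals of 6039 and 7223. AT2G27730 had 0.25 and AT1G67350 0.20. All of these kept a log2 ratio above 0 under the 4 other scalings.

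Other accessory subunits had smaller ratios. AT5G18800 and AT3G06310, both counterparts of mammalian NDUFA8, had log2 ratios of 0.17 and 0.14. AT2G20360, counterpart of mammalian NDUFA9, had 0.15, and AT5G47890, counterpart of mammalian NDUFA2, had 0.12. AT5G67590, known as FRO1 from a mutant with impaired cold response, had signals of 2829 and 3026 and a log2 ratio of 0.10. AT4G20150 had 0.08, and AT3G12260, counterpart of mammalian NDUFA6, had 0.07. FRO1 and AT4G20150 lay below 0 only with the spike scaling, and AT3G12260 with that and the quantile scaling.

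In a last group of 5 complex I genes the log2 ratio lay within 0.05 of 0. AT5G52840, counterpart of mammalian NDUFA5, had signals of 3210 and 3293. AT2G42210, also known as OEP16-3 and a counterpart of mammalian NDUFA11, had signals of 3423 and 3466, and AT2G33220, counterpart of mammalian NDUFA13, had 1607 and 1619. AT2G47690, the dimmest member of complex I, had 508 and 516. AT3G03070, counterpart of mammalian NDUFS6, was the only complex I gene lower in OE-N6, with signals of 3423 and 3389 and a log2 ratio of -0.01. Its sign turned with median centring, and the signs of the other 4 turned with the spike scaling, those of AT5G52840 and AT2G42210 under loess scaling too. AT3G03070 and AT3G03100 lie close together on chromosome 3, with 2 protein-coding genes between them in the TAIR10.1 gene table, and had -0.01 and 0.36.

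**Figure D3:**
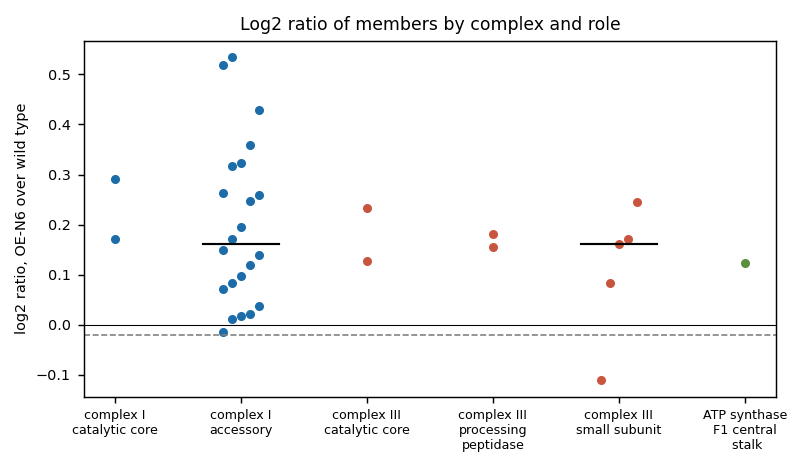
Log2 ratio of OE-N6 over wild type for the 34 genes that passed the filter, by complex and role; each point is 1 gene, black bars are medians of groups with more than 2 genes, and the dashed line is the median of all 5862 genes at -0.02. The accessory subunits of complex I span -0.01 to 0.53, and AT2G01090 at -0.11 is the lowest point.

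In complex III the catalytic and peptidase genes had ratios close to one another. Cytochrome c1 hands electrons to cytochrome c and has a pair of loci here. AT3G27240 had signals of 2088 and 2454, a log2 ratio of 0.23, and AT5G40810 had 2660 and 2904, a log2 ratio of 0.13. The alpha subunit of the processing peptidase, AT1G51980, had signals of 2409 and 2682, and the beta subunit MPPBETA (AT3G02090) had 4260 and 4827. Their log2 ratios were 0.15 and 0.18. All 4 genes were higher in OE-N6 under the 4 other scalings as well.

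Among the 9 complex III genes that passed the filter, small subunits held the highest and the lowest value. AT1G15120, a QCR6 or hinge protein that in yeast and mammals helps cytochrome c dock, had signals of 2324 and 2755, a log2 ratio of 0.25. Its paralogue AT2G01090 had signals of 845 and 783, a log2 ratio of -0.11, which stayed below 0 in the 4 other scalings. AT3G10860, a counterpart of yeast QCR8, had 4448 and 5009, a log2 ratio of 0.17. AT3G52730, a counterpart of yeast QCR9, had 3619 and 4048, a log2 ratio of 0.16. AT4G32470, a counterpart of yeast QCR7, had 4110 and 4355, a log2 ratio of 0.08, and its sign turned with the spike scaling. AT5G25450, the other QCR7 locus, had signals of 151 and 172 and was the 1 gene that did not pass the filter.

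For the ATP synthase only the delta subunit, AT5G47030, part of the rotating central stalk, had a probe set of its own. It read 4725 and 5147, a log2 ratio of 0.12, and it stayed above 0 in the 4 other scalings, with 0.06 under quantile and 0.07 under loess scaling. A single gene gives no account of the complex. The gamma, OSCP and d subunits and 1 of 3 beta loci had no probe set listed here.

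Probe sets shared by several loci cover further subunits, and these are not counted above. The probe set of the beta loci AT5G08670 and AT5G08690, which encode the catalytic subunit of the ATP synthase, had signals of 6352 and 6922, a log2 ratio of 0.12. That of the neighbouring Rieske iron-sulfur protein loci AT5G13430 and AT5G13440 of complex III had 3789 and 4290, a log2 ratio of 0.18. That of AT1G49140 and AT3G18410, counterparts of mammalian NDUFB10, had 7383 and 9238, a log2 ratio of 0.32. The probe set of AT5G05370, a QCR8 locus, is shared with AT1G68010, a hydroxypyruvate reductase of photorespiration, so its log2 ratio of 0.50 cannot be assigned. OE-N6 gave the higher deposited signal for all 4 shared probe sets. With the first 3 added, each as 1 gene, 35 of 37 values lay above 0.

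Paralogous loci for the same subunit could be compared for 6 pairs. The largest gap was between the NDUFS5 counterparts, where AT3G62790 exceeded AT2G47690 by 0.41 in log2 ratio. The QCR6 loci followed, with AT1G15120 above AT2G01090 by 0.36. AT1G14450 exceeded the other B12 locus by 0.20. The gaps were 0.11 for cytochrome c1, 0.10 for QCR7 and 0.03 for the NDUFA8 counterparts. The QCR7 gap, with 1 locus under the filter, was 0.17 under quantile and 0.18 under loess scaling. As a measure of how far probe sets can differ, the log2 ratios of the brightest pair of probe sets of 1 gene lay a median of 0.19 and at most 0.73 apart over 41 genes, and 0.73 exceeds every gap between paralogues here. Under quantile and loess scaling the gap of the NDUFS5 counterparts was 0.40 in both, and that of the QCR6 loci was 0.32 and 0.31. Median centring and the spike scaling subtract the same value from every gene and cannot change a gap. Paralogues are similar in sequence, and whether their probe sets read each other's transcript was not tested.

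**Figure D4:**
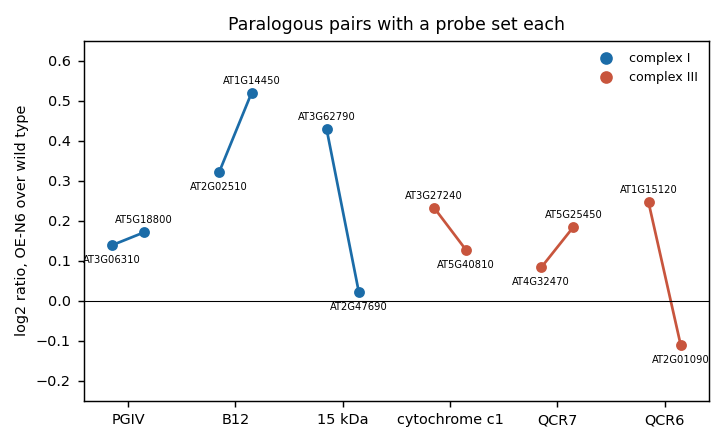
Log2 ratio of OE-N6 over wild type for 6 pairs of paralogous loci, each with a probe set of its own; a line joins the loci of a pair, blue for complex I and red for complex III. The NDUFS5 counterparts (15 kDa) and the QCR6 loci lie farthest apart, at 0.43 and 0.02 and at 0.25 and -0.11.

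The other parts of the nuclear respiratory chain leaned the same way, and some by more. Among all genes that passed the filter, 46.8% had a log2 ratio above 0. The share was 66.9% at a mean signal of 4000 or more. Complex II oxidises succinate and feeds the same ubiquinone pool. Of its 12 listed loci 4 had a probe set of their own and 3 passed the filter. All 3 were above 0, with a median log2 ratio of 0.42: SDH2-1 had 0.47, SDH1-1 0.42 and SDH2-2 0.40. For cytochrome c and complex IV, the terminal oxidase, 10 of 13 loci had a probe set of their own. Of these 9 passed and all 9 were above 0 in the deposited signals, with a median of 0.29. AT3G15640, a COX5b subunit, had the highest value, with signals of 649 and 1110 and a log2 ratio of 0.77, and AT4G37830, a COX6a subunit, the lowest at 0.03. Under quantile and loess scaling AT4G37830 lay below 0 and the other 8 above it, and with the spike scaling 7 of 9 lay above 0. CYTC-1, the brighter cytochrome c gene, had 4827 and 6218, a log2 ratio of 0.37, and CYTC-2 had 0.09, below 0 with the spike scaling.

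Further subunits of complex III and the ATP synthase that were not among the 58 loci had a median of 0.30. Of 9 such loci 6 had a probe set of their own. All 6 passed the filter and were above 0, in the 4 other scalings too. Of all genes, 46.8% were above 0 in the deposited signals. AT1G51650, the epsilon subunit of the central stalk, had signals of 2067 and 3375, a log2 ratio of 0.71 and a 1.63-fold difference. AT4G30010 had the lowest of them at 0.23. AT2G40765 had signals of 1145 and 1423, a log2 ratio of 0.31. That is above the highest of the 9 complex III genes described earlier, 0.25. Of the 18 genes of these groups, AT3G15640 and AT1G51650 were at least 1.5-fold higher, which is 2 genes against 2.44% of all genes. None reached 2-fold, a size that 0.546% of all genes reached upward and 0.495% downward.

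Of 12 listed loci for bypass enzymes of plant mitochondria, 5 had a probe set of their own and 3 passed the filter. The alternative NAD(P)H dehydrogenases NDC1, NDB2 and NDB1 move electrons to ubiquinone without pumping protons, and had log2 ratios of 0.02, -0.08 and -0.13, with NDC1 below 0 under the spike scaling. No alternative oxidase had a probe set of its own listed here, and shared probe sets were not searched for these lists. GLDH, which makes ascorbate and is needed to assemble complex I, had nearly equal signals of 365 and 364. The lists of these genes were drawn up with earlier results of these data known.

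The 2 genes for subunits encoded in the mitochondrial genome that passed the filter had lower signals in OE-N6. Of 10 genes for such subunits found by symbol, all 10 had a lower signal in OE-N6. Of these 10, however, 5 were under the floor on both arrays and only 2 passed the filter. Among all 5862 genes that passed, 46.8% had a log2 ratio above 0. The share was 44.6% of the 2763 genes with a mean signal from 192 to 500. Both shares cover only genes that passed the filter. No share was taken for dimmer genes, so the count of 10 has no like background. The complex I gene nad4 had signals of 641 and 594, a log2 ratio of -0.11. The complex IV gene cox1 had signals of 452 and 317, a log2 ratio of -0.51. Both stayed below 0 in the 4 other scalings. These transcripts mostly lack poly(A) tails, and their low signals limit what can be said.

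**Figure D5:**
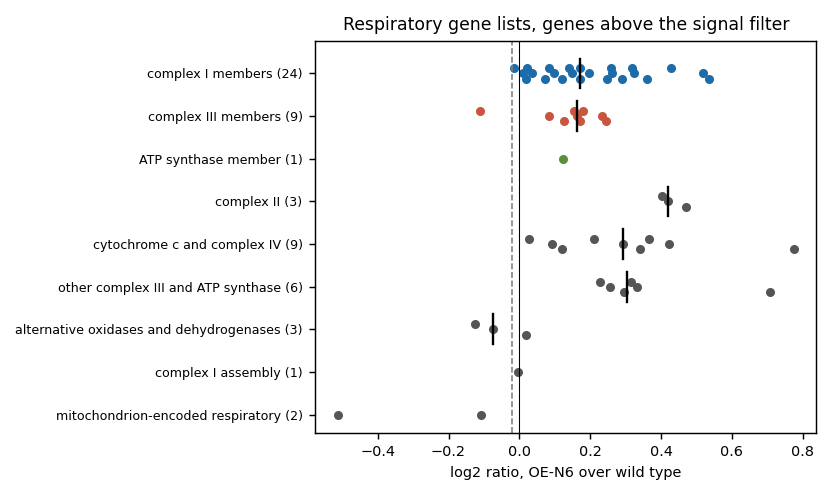
Log2 ratio of OE-N6 over wild type for respiratory genes that passed the filter, by list, with the number of genes in brackets; black bars are medians of lists with more than 2 genes, and the dashed line is the median of all genes at -0.02. The nuclear lists for complexes I to IV and the ATP synthase lie mostly to the right of 0, and both mitochondrion-encoded genes lie to the left.

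Other measures also moved between the arrays. Control probe sets at the 3' end of actin, GAPDH and ubiquitin, set against those of the 5' end or the middle, report on RNA quality. The ratio was larger in OE-N6 in 9 of 10 such pairs, and the median difference over the 10 was 0.13 on the log2 scale. Several pairs share a 3' probe set, so the 10 are not separate readings. For the hybridisation spikes the log2 ratio over 18 probe sets was 0.09 ± 0.17 (mean and SD). Of 6 listed green-tissue markers 4 had a probe set of their own, and all 4 passed the filter. These green-tissue markers had a median log2 ratio of 0.04, from LHCB4.2 at -0.18 to PSAN at 0.16. Their median was 0.06 after median centring, but -0.01, -0.05 and -0.06 under quantile, loess and spike scaling. Of 5 listed root markers 3 had a probe set of their own and 2 passed the filter. PYK10 had signals of 15970 and 16513, a log2 ratio of 0.05. EXPA18, with a mean signal of 239 near the filter, had 188 and 290, a log2 ratio of 0.62. EXPA7, which did not pass, had 155 and 196, a log2 ratio of 0.34. Both shoot and root transcripts were thus present. PYK10 lay below 0 under loess and spike scaling. No flower or seed marker of the lists had a probe set of its own listed here. The part of RNA quality and of tissue make-up in the ratios of the respiratory genes was not tested.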

How the data were processed

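Per the labels' protocols, biotin-labelled material from 6 µg of total RNA was hybridised to 1 ATH1 array per genotype. The authors deposited 1 signal intensity per probe set on a linear scale. The submitters' processing notes name MAS5, and the sources used here give neither its version nor its settings. In the deposited intensity values both arrays have the same mean of 500.0 once the top and bottom 2% of probe sets are left out.

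Of 22746 probe sets that are not controls, 13513 have 1 gene in the platform annotation and 503 several. The other 8730 are not listed there or have no gene there. Loci were matched by gene identifier to the RefSeq table of TAIR10.1, where all 58 were found. The probe set with the highest mean signal stood for a gene. Genes with a mean signal of at least the median of non-control probe sets (192) were kept, and log2 ratios were taken after lower signals had been set to a floor of 112, the 40th percentile of both arrays' values. A gene was called at 2-fold. Mitochondrion-encoded genes were matched by symbol.

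The number of arrays limits the precision, and no p-value or replicate SD is given. The alternatives were 3 other scalings, other filters, floors, thresholds and probe-set rules, a pseudocount of 7.89 and the mean. The scaling to spikes and the adding of shared probe sets were chosen after seeing the data. Members, lists and tests were chosen with earlier results of these data known. Named were all members that passed, the overexpressed gene, and the highest and lowest of each other list; other named genes were chosen after their values were seen. Simulated data were used to test the scripts' counts and scalings. Promoter motifs were planned but not run, since no sequence was used here. Python 3.11.15, numpy 2.4.6, pandas 2.3.3, statsmodels 0.14.6 and matplotlib 3.10.9 were used.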

Additional observations from a re-analysis of the deposited data

How the results depend on the processing

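Over 15 alternatives (scaling, filter, floor, probe-set, pseudocount and threshold settings and the mean), the counts of respiratory genes at least 2-fold higher or lower stayed at 0. Not all of these could alter the counts. The other floor and probe-set settings left the log2 ratio of every respiratory gene that passed unchanged. A 3-fold threshold could only give 0, since none of the genes reached 1.5-fold. The median log2 ratio of the genes ran from 0.06 with the spike scaling to 0.19 with median centring. That of complex I ran from 0.07 to 0.19, and its mean in the deposited signals was 0.20. The median of complex III ran from 0.06 to 0.18 and the value of the ATP synthase gene from 0.02 to 0.14. Between 24 and 35 genes lay above 0, the highest count with shared probe sets added. The sign of single genes turned for 1 gene with median centring, 1 with quantile scaling, 2 with loess scaling and 8 with the spike scaling. Without the filter AT5G25450 entered with a log2 ratio of 0.18. No paired analysis was possible because there is 1 array of each genotype. Most of these genes were bright, with a mean signal of at least 2000 for 27 of 34. The single array per genotype leaves every difference without a replicate check.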
